A study of Rattus norvegicus with 6 samples.

Results

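Iron handling was followed through 9 genes, Tfrc, Slc11a2, Slc11a1, Ftl1, Fth1, Hmox1, Slc40a1, Cp and Ireb2, taken as the rows of the deposited gene table that carry these symbols. All 9 symbols were found, among 34045 genes in all. The table came from RNA sequencing of calvarial bone defects, holes made in the skull roof, of male wild type Sprague-Dawley rats. The tissue was cut out at week 4 after surgery, and the labels give no age. In 3 libraries the defect had received the CGG-Cit hydrogel and in 3 the CGG hydrogel. The labels spell out neither name, and both groups carried an implanted gel, so an unfilled defect was not part of the comparison. No label says that libraries of a group came from separate rats, so a p-value here reflects how libraries scatter, and that scatter may be technical. The libraries held 14744207 to 16224920 assigned fragments, recovered from the table, and every level is in FPKM, fragments per kilobase scaled by library size. The bone matrix gene Bglap, which encodes osteocalcin, lay at 611 to 1552 FPKM in CGG-Cit libraries, against 2666 to 3384 FPKM in CGG libraries, and Ibsp, which encodes bone sialoprotein, at 100.5 to 199.9 FPKM in CGG-Cit libraries and 318 to 391 FPKM in CGG libraries, so markers of bone were present in every library.

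Cells take up iron mainly by binding plasma transferrin to transferrin receptor 1, the product of Tfrc, which is abundant in haemoglobin-making erythroid precursors and in dividing cells. Iron released in the endosome enters the cytosol through the transporter encoded by Slc11a2, and what is not used is stored in ferritin, a cage of heavy (Fth1) and light (Ftl1) chains. Macrophages that engulf old red cells break haem down with haem oxygenase 1 (Hmox1), move iron out of the phagosome with the transporter NRAMP1 encoded by Slc11a1, and return it to plasma through ferroportin (Slc40a1), helped by the ferroxidase ceruloplasmin (Cp). Iron regulatory protein 2, the product of Ireb2, binds iron-responsive elements in transcripts such as those of ferritin, ferroportin and Tfrc. For ferritin and ferroportin these RNA-binding controls can change protein levels without changing a transcript's level, and only transcripts were measured.

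The promoter windows of the importer and the exporter genes are shown, because the 2 genes stand at the start and the end of the cell's iron route and because Tfrc and 1 of the 2 rows described as the exporter were lower with CGG-Cit. Windows for 5 of the 9 genes were found in the RefSeq promoter table of the GRCr8 build: Tfrc, Slc40a1, Slc11a2, Cp and Ireb2. Each window holds the 250 bases before the annotated start, read 5′ to 3′ on the gene's own strand. The Tfrc window lies at chr11:81690319-81690568 and the Slc40a1 window at chr9:55543461-55543710, both on the minus strand. Capitals mark matches to the motifs searched.
Tfrc: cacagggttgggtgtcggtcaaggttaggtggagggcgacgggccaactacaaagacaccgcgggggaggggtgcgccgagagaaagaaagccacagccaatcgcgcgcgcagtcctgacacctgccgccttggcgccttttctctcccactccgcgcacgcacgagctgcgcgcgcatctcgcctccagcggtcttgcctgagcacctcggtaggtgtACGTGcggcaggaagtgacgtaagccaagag
Slc40a1: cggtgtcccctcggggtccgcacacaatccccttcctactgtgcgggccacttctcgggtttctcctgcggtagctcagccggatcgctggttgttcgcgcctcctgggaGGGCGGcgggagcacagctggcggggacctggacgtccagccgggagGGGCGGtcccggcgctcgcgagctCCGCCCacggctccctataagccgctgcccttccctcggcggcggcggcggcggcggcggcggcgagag

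In the Tfrc window the capitals are the core of a hypoxia element, ACGTG, at bases -31 to -27 counted back from the start. In the Slc40a1 window they are 3 GC boxes, GGGCGG on either strand, at -140 to -135, -93 to -88 and -69 to -64. Both strands were also searched for the Nrf2 and Bach1 core TGACNNNGC, the AP-1 site TGANTCA, the GATA site AGATAA and the E-box CACGTG, which contains ACGTG. Of all 33465 windows of this length, 16.6% held ACGTG, 30.5% GGGCGG, 10.1% TGACNNNGC, 6.34% TGANTCA, 10.3% AGATAA and 5.59% CACGTG. The GC content was 64.8% in the Tfrc window and 74% in the Slc40a1 window, against a median of 51.2% over all windows. A match is a description of letters and not a site.

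The question was how transcripts of iron uptake, storage and recycling differed between defects filled with CGG-Cit and defects filled with CGG. The importer gene of erythroid and dividing cells, Tfrc, was lower in CGG-Cit libraries, and the phagosomal iron transporter gene of phagocytes, Slc11a1, was higher. Ftl1, one of the most abundant transcripts of the tissue, lay higher in every CGG-Cit library than in any CGG library without passing the test. Of the 9 genes 8 could be tested, and 1 was higher and 1 lower with limma at a Benjamini-Hochberg adjusted p under 0.05. Over all 15965 genes tested, 7.75% were called higher and 9.78% lower, 17.5% in either direction, so 2 calls among 8 genes are not far from the background. The groups did not overlap for 3 of the 8, Slc11a1 and Ftl1 with CGG-Cit above and Tfrc with CGG-Cit below. Over all genes the groups did not overlap in 19.6% with CGG-Cit above, 22.1% with CGG-Cit below and 41.7% in either direction. The median log2 fold change, CGG-Cit minus CGG in log2(FPKM + 1), was 0.38 over the 8 genes and 0.00 over all genes. The 8 include the Slc40a1 row, at 0.90, which was tested only because of its level in CGG-Cit 3. The other exporter row, at -0.81, is not among them, and the 0.38 depends on which row is counted.

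**Figure D1:**
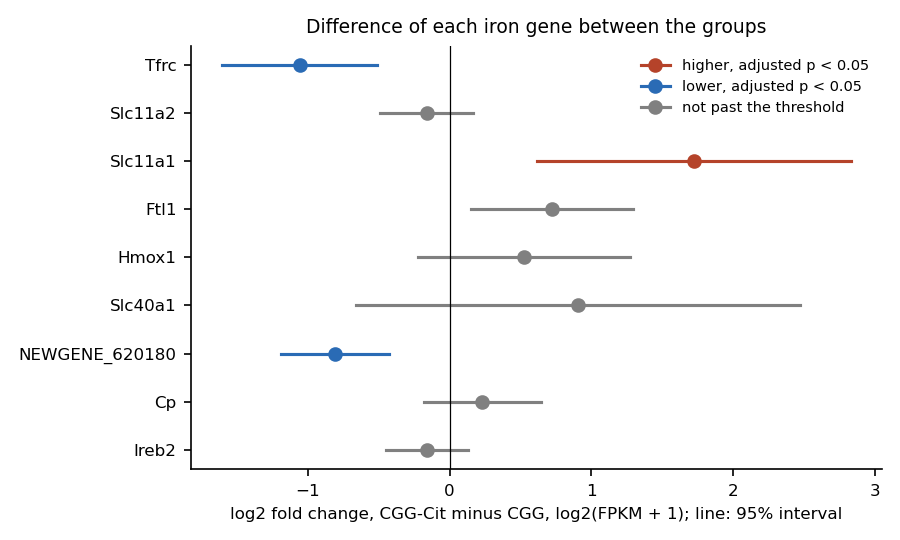
Log2 fold change of each iron gene, CGG-Cit minus CGG in log2(FPKM + 1) (horizontal axis), with its 95% interval from limma. Slc11a1 at 1.72 was called higher, Tfrc at -1.06 and the second ferroportin row NEWGENE_620180 at -0.81 lower, and the intervals of Hmox1, Slc40a1, Slc11a2, Cp and Ireb2 span 0.

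Tfrc (chromosome 11, 71397383 to 71419223, minus strand) had 42.2, 33.4 and 56.5 FPKM in CGG-Cit libraries 1 to 3, against 87.6, 74.5 and 115 FPKM in CGG libraries 1 to 3. Every CGG-Cit library lay below every CGG library. The means were 44.0 ± 11.7 FPKM in CGG-Cit and 92.2 ± 20.5 FPKM in CGG (SD, n = 3 each), so the CGG-Cit mean was 47.7% of the CGG mean. Tfrc fell by 1.06 ± 0.23 on the log2 scale (SE; limma adjusted p = 0.0274). The call was lost, with the same sign, when 1 library was left out: the limma adjusted p was 0.0734 without CGG-Cit 1, 0.0835 without CGG-Cit 2, 0.0698 without CGG 1, 0.0521 without CGG 2 and 0.0890 without CGG 3. In bulk tissue fewer cells of a type and less RNA per cell cannot be told apart.

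Transcripts of erythroid precursors and of dividing cells moved with Tfrc. Of 13 tested erythroid genes 12 were lower and 0 higher, with a summed level of 421 to 792 FPKM in CGG-Cit libraries, against 1324 to 1652 FPKM in CGG libraries. Ahsp, the chaperone of alpha globin, averaged 160 ± 47.4 FPKM in CGG-Cit and 421 ± 42.9 FPKM in CGG (limma adjusted p = 0.0129, and 0.0583 without CGG 3). All 12 cell cycle genes tested were lower, with a summed level of 226 to 347 FPKM in CGG-Cit libraries, against 467 to 631 FPKM in CGG libraries. Without single libraries 1 to 12 of the erythroid and 0 to 12 of the cell cycle genes passed, the fewest of both without CGG 3. The part of either cell population in the Tfrc result was not tested.

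Measured against these lists within each library, Tfrc gave overlapping values in the 2 gels. The ratio of Tfrc to the erythroid list, as a difference of log2(FPKM + 1) values, was 0.96, 0.93 and 0.84 in CGG-Cit libraries 1 to 3, against 0.77, 0.40 and 0.87 in CGG libraries 1 to 3. The groups overlapped, and the CGG-Cit mean minus the CGG mean was 0.23 (exact two-sided permutation p = 0.2). Against the cell cycle list the difference was -0.013 (exact two-sided permutation p = 0.8). With 3 libraries a side the smallest p this test can give is 0.1, so none of these ratios could pass 0.05. The mean log2 level of the erythroid list itself was lower in CGG-Cit by 1.29 and that of the cell cycle list by 1.05, and a difference of Tfrc from either was not detectable in this design.

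Slc11a2, the DMT1 transporter that carries iron out of the endosome, had 10.6, 7.88 and 7.62 FPKM in CGG-Cit libraries, against 9.58, 10.1 and 9.64 FPKM in CGG libraries. The groups overlapped because CGG-Cit 1 was the highest of all 6. Its log2 fold change was -0.16 with a 95% interval of -0.49 to 0.16 (limma adjusted p = 0.435).

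**Figure D2:**
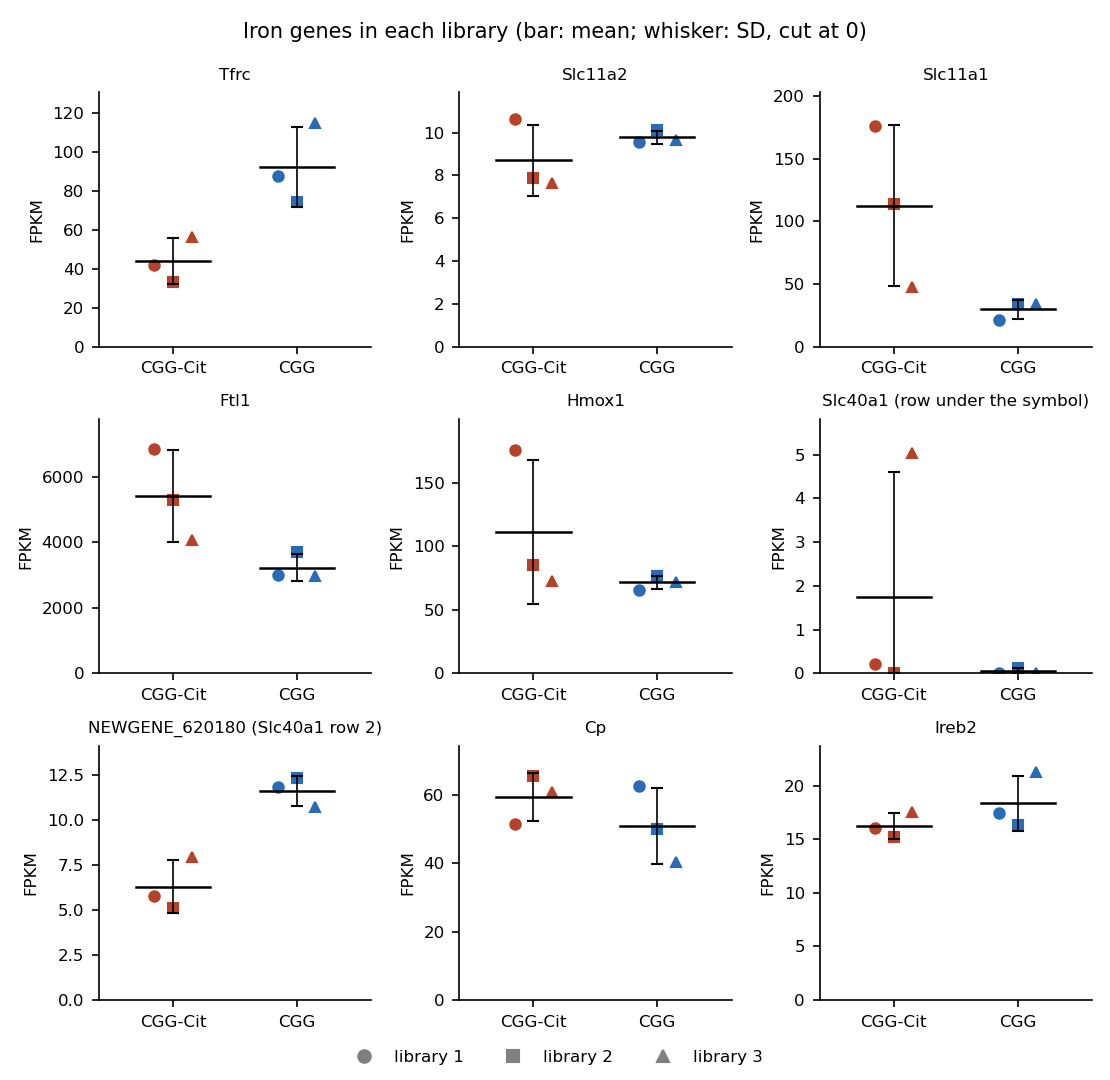
FPKM (vertical axis, from 0, a scale of its own per panel) of 8 of the 9 iron genes and of the second ferroportin row in each library, CGG-Cit left and CGG right, with the mean and SD. The CGG-Cit points of Tfrc lie between 33.4 and 56.5 FPKM, below all CGG points, those of Slc11a1 between 47.6 and 176 FPKM, above all CGG points, and single libraries carry the Hmox1 and Slc40a1 means. Fth1, listed at 0 in every library, is not drawn.

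Slc11a1 (chromosome 9, 81655629 to 81666706, plus strand) had 176, 114 and 47.6 FPKM in CGG-Cit libraries 1 to 3, against 21.2, 34.1 and 34.2 FPKM in CGG libraries 1 to 3. Its CGG-Cit libraries differed 3.70-fold among themselves, the widest spread among the 8 tested iron genes apart from Slc40a1, and CGG-Cit 3 lay close to the CGG libraries. The means were 112 ± 64.2 FPKM in CGG-Cit and 29.8 ± 7.46 FPKM in CGG (SD, n = 3 each), a 3.77-fold difference. Slc11a1 rose by 1.72 ± 0.46 on the log2 scale (SE; limma adjusted p = 0.0479), close to the threshold. The adjusted p was 0.0800 without the filter on low values and 0.0507 with robust variance estimates. It was 0.0980 without CGG-Cit 1, 0.143 without CGG-Cit 2, 0.126 without CGG 1, 0.0971 without CGG 2 and 0.114 without CGG 3, against 0.00694 without CGG-Cit 3 (limma).

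Slc11a1 is made by macrophages and neutrophils, whose marker lists moved in opposite directions. Of 13 macrophage genes 12 were higher and 0 lower, with a summed level of 1874 to 2764 FPKM in CGG-Cit libraries, against 1004 to 1151 FPKM in CGG libraries. Lgmn, a lysosomal protease, averaged 521 ± 161 FPKM in CGG-Cit and 163 ± 9.90 FPKM in CGG (limma adjusted p = 0.0115, and 0.0535 without CGG 3). Of 11 tested neutrophil genes 11 were lower, with a summed level of 2472 to 6401 FPKM in CGG-Cit libraries, against 15198 to 17091 FPKM in CGG libraries. Without single libraries 2 to 11 macrophage genes and 0 to 11 neutrophil genes passed, the fewest macrophage genes without CGG-Cit 2 or CGG 3 and the fewest neutrophil genes without CGG 3. The part of either population in the Slc11a1 result was not tested.

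Relative to the macrophage list Slc11a1 was 0.56, -0.12 and -0.90 on the log2 scale in CGG-Cit libraries 1 to 3, against -1.28, -0.56 and -0.38 in CGG libraries 1 to 3. These overlapped, with a mean difference of 0.59 (exact two-sided permutation p = 0.4). Relative to the neutrophil list it was 0.98, 0.89 and -1.63 in CGG-Cit libraries, against -3.74, -3.16 and -3.17 in CGG libraries. These did not overlap, with a mean difference of 3.44 (exact two-sided permutation p = 0.1, the smallest possible). That outcome was fixed, since in every CGG-Cit library Slc11a1 lay above and the neutrophil list below all CGG libraries. The test thus adds nothing to those differences. Set against its paralogue Slc11a2, Slc11a1 was higher in CGG-Cit by 1.89 on the log2 scale, again without overlap (exact two-sided permutation p = 0.1). The 9 planned ratios were adjusted together, and the smallest adjusted value among them was 0.3.

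Ftl1, the ferritin light chain gene (chromosome 1, 101448346 to 101449829, minus strand), had 6863, 5310 and 4064 FPKM in CGG-Cit libraries 1 to 3, against 3002, 3695 and 2982 FPKM in CGG libraries 1 to 3. Every CGG-Cit library lay above every CGG library. It ranked 5th to 13th of all genes in CGG-Cit libraries and 19th to 21st in CGG libraries, with 0.761% to 1.28% of the summed FPKM in CGG-Cit and 0.493% to 0.564% in CGG. The log2 fold change was 0.72 ± 0.24 (SE; limma adjusted p = 0.0836), which did not pass. It passed after rescaling to TPM, after quantile normalization, with voom on the recovered fragments and without CGG-Cit 3 (limma adjusted p = 0.0377).

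Near-identical ferritin copies make the Ftl1 row uncertain, since the counting could split their reads. The table lists 3 other ferritin light chain rows with values above 0, LOC100362384, LOC100360087 and LOC100359668, with log2 fold changes of 0.82, 0.61 and 0.56, none of them called. A miRNA row, AC128792.1, overlaps Ftl1 on the same strand, and reads of the pair cannot be told apart. Together the 3 other ferritin rows held 2.27% to 2.87% of the summed ferritin light chain level. The sum of the 4 rows was 7065, 5433 and 4176 FPKM in CGG-Cit libraries, against 3074, 3793 and 3069 FPKM in CGG libraries, a log2 difference of 0.72 (exact two-sided permutation p = 0.1). Ftl1 relative to the macrophage list differed by -0.41 between CGG-Cit and CGG, with overlap (exact two-sided permutation p = 0.2), and by 0.0085 under quantile normalization. The mean log2 level of the macrophage list itself was higher in CGG-Cit by 1.13.

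Fth1, the ferritin heavy chain gene that carries the ferroxidase centre, was listed at 0 in all 6 libraries and could not be tested. The 7 rows described as ferritin heavy chain, its relatives or mitochondrial ferritin summed to 0 to 2 fragments per library. Best1 spans Fth1 on the other strand, at 1.43 FPKM in CGG-Cit and 0.899 FPKM in CGG on average. The heavy chain was thus not measurable in this table, and no ratio of heavy to light chain could be formed.

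Hmox1, which encodes the haem-degrading enzyme, had 176, 84.8 and 72.9 FPKM in CGG-Cit libraries 1 to 3, against 65.8, 76.7 and 71.9 FPKM in CGG libraries 1 to 3. CGG-Cit 1 alone stood apart, and the other CGG-Cit libraries lay beside the CGG libraries. The means were 111 ± 56.3 FPKM in CGG-Cit and 71.5 ± 5.43 FPKM in CGG (SD, n = 3 each). The log2 fold change was 0.52 ± 0.31 (SE; limma adjusted p = 0.279), and it was 0.14 without CGG-Cit 1. Relative to the macrophage list Hmox1 was 0.56, -0.54 and -0.29 in CGG-Cit libraries 1 to 3, against 0.31, 0.59 and 0.67 in CGG libraries 1 to 3 (exact two-sided permutation p = 0.2). Hmox1 was not shown to differ between the gels, on its own or beside the macrophage genes.

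The ferroportin gene is split over 2 rows of the table, and the rows differed. The row with the symbol Slc40a1 (chromosome 9, 52820683 to 52830457, minus strand) had 0.227, 0 and 5.04 FPKM in CGG-Cit libraries 1 to 3, against 0, 0.133 and 0 FPKM in CGG libraries 1 to 3. These are 5, 0 and 122 fragments in CGG-Cit libraries, against 0, 3 and 0 fragments in CGG libraries. It passed the filter on low values only through CGG-Cit 3, and its log2 fold change of 0.90 ± 0.66 (SE; limma adjusted p = 0.366) was 0.09 without that library. The row under the symbol therefore carried next to no signal in 5 of the 6 libraries.

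A second row, listed as NEWGENE_620180 and described as solute carrier family 40 member 1 (chromosome 9, 52894365 to 52912293, minus strand), held most of the ferroportin signal. It was chosen after its values were seen and is not counted among the 9. It had 5.80, 5.15 and 7.97 FPKM in CGG-Cit libraries 1 to 3, against 11.8, 12.4 and 10.7 FPKM in CGG libraries 1 to 3, without overlap. The means were 6.31 ± 1.48 FPKM in CGG-Cit and 11.6 ± 0.845 FPKM in CGG (SD, n = 3 each), so the CGG-Cit mean was 54.2% of the CGG mean. It fell by 0.81 ± 0.16 on the log2 scale (SE; limma adjusted p = 0.0232). The limma adjusted p lay between 0.0641 and 0.0754 when CGG-Cit 1, CGG-Cit 2, CGG 1, CGG 2 or CGG 3 was left out, and at 0.00748 without CGG-Cit 3.

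The exporter row thus went the other way from the macrophage list. Relative to that list NEWGENE_620180 was -4.14, -4.34 and -3.33 on the log2 scale in CGG-Cit libraries 1 to 3, against -2.07, -1.95 and -1.97 in CGG libraries 1 to 3. The difference was -1.94, without overlap (exact two-sided permutation p = 0.1, the smallest possible). That outcome was fixed, since in every CGG-Cit library the row lay below and the list above all CGG libraries. The test thus adds nothing to those differences. Relative to Slc11a1 the difference was -2.53. Its lack of overlap was fixed too, as Slc11a1 lay above all CGG libraries in every CGG-Cit library. Tfrc minus NEWGENE_620180 differed by -0.25 between CGG-Cit and CGG, with overlap (exact two-sided permutation p = 0.4). The importer and this exporter row were thus both lower without a detectable change of their ratio. In CGG-Cit 3 this row had 7.97 FPKM and the Slc40a1 row a further 5.04 FPKM. The CGG libraries had 10.7 to 12.4 FPKM in this row. The rows were not summed, so a lower level of the exporter gene as a whole was not shown.

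**Figure D3:**
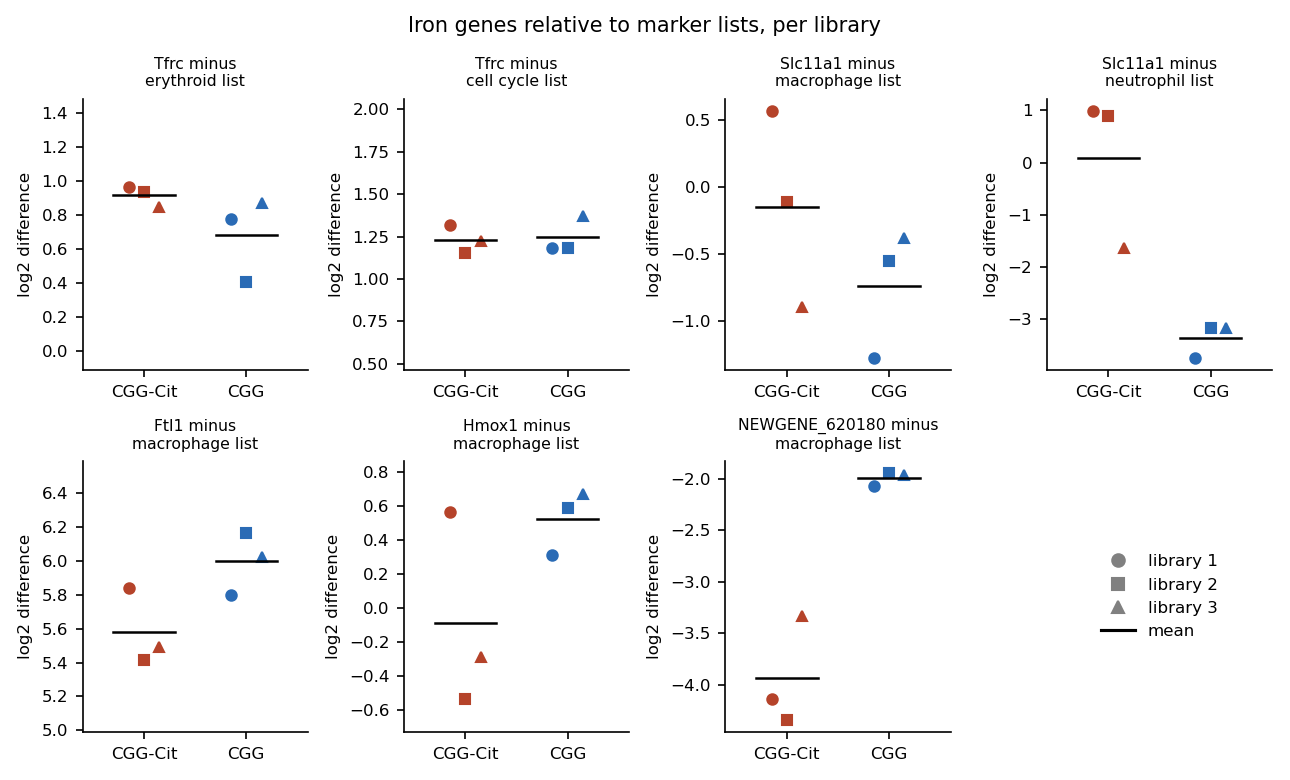
Iron genes relative to marker lists in each library, as the gene's log2(FPKM + 1) minus the mean over the list (vertical axis), CGG-Cit left and CGG right, bars at the means. The 3 CGG-Cit points lie above the CGG points for Slc11a1 against the neutrophil list and below them for NEWGENE_620180 against the macrophage list, and the groups overlap in the other panels. Both separations were fixed beforehand, since gene and list were each apart between the groups, in opposite directions.

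Markers of iron-recycling macrophages, the splenic and hepatic type that clears red cells, did not move as one group. Of 7 tested genes 2 were higher and 0 lower, with a median log2 fold change of -0.10, although the summed level was 241 to 334 FPKM in CGG-Cit libraries, against 152 to 171 FPKM in CGG libraries. Axl, a receptor for dying cells, averaged 108 ± 13.6 FPKM in CGG-Cit and 54.0 ± 5.03 FPKM in CGG (limma adjusted p = 0.00872). Siglec1, a sialic acid receptor of macrophages, was the other gene called higher, with means of 46.8 FPKM in CGG-Cit and 12.6 FPKM in CGG (limma adjusted p = 0.0223). Cd5l, a protein secreted by macrophages, averaged 66.4 ± 37.2 FPKM in CGG-Cit and 29.7 ± 3.16 FPKM in CGG (SD, n = 3 each), overlapped between the groups and was not called (limma adjusted p = 0.151). Siglec1, Cd163, Spic and Marco were chosen after their values were seen. Of the defining markers, Cd163, the haemoglobin-haptoglobin receptor, had 11.3, 12.8 and 21.7 FPKM in CGG-Cit libraries, against 25.8, 21.3 and 17.0 FPKM in CGG libraries. Spic, the transcription factor of red pulp macrophages, had 9.86, 4.71 and 5.76 FPKM in CGG-Cit libraries, against 8.28, 7.09 and 6.64 FPKM in CGG libraries. Cd163 and Spic overlapped between the groups, neither was called with all 6 libraries, and Marco was at 0 in all libraries. Without single libraries 1 to 2 of the 7 were higher and 0 to 1 lower. The 1 lower was Cd163, without CGG-Cit 3 (limma adjusted p = 0.0415). The difference between this list and the broader macrophage list was not tested.

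Cp, which encodes the ferroxidase ceruloplasmin, had 51.7, 65.5 and 61.0 FPKM in CGG-Cit libraries, against 62.6, 49.99 and 40.5 FPKM in CGG libraries. The groups overlapped, and the log2 fold change was 0.23 with a 95% interval of -0.18 to 0.64 (limma adjusted p = 0.385). Hepatocytes, the main source of plasma ceruloplasmin, were near absent, with a summed level of 7 markers of 0.911 to 1.48 FPKM in CGG-Cit libraries and 0.361 to 0.965 FPKM in CGG libraries. Hps3 overlaps Cp on the other strand, at 9.81 FPKM in CGG-Cit and 9.16 FPKM in CGG on average, and the strand setting of the counting is not given in the sources used here.

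Ireb2, the iron sensor, had 16.0, 15.2 and 17.5 FPKM in CGG-Cit libraries, against 17.4, 16.4 and 21.3 FPKM in CGG libraries. The groups overlapped here too, and the log2 fold change was -0.16 with a 95% interval of -0.45 to 0.13 (limma adjusted p = 0.392). Of the 8 tested genes it varied least within CGG-Cit, its highest library being 1.16 times its lowest.

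The order of the transcripts per length differed between the gels. In CGG-Cit the mean FPKM ran from Ftl1 through Slc11a1, Hmox1, Cp, Tfrc, Ireb2 and Slc11a2 to Slc40a1 and Fth1. In CGG it ran from Ftl1 through Tfrc, Hmox1, Cp, Slc11a1, Ireb2 and Slc11a2 to Slc40a1 and Fth1. This is an order of means, and it did not hold in every library: in CGG-Cit 3 Slc11a1 had 47.6 FPKM, below Tfrc at 56.5, Cp at 61.0 and Hmox1 at 72.9 FPKM. The libraries of Slc11a1 (47.6 to 176 FPKM) and Tfrc (33.4 to 56.5 FPKM) overlapped in CGG-Cit. Among these neighbours the libraries overlapped for Slc11a1 and Hmox1 and for Cp and Tfrc in CGG-Cit, and for Tfrc and Hmox1 and for Slc11a1 and Ireb2 in CGG. Ftl1 lay above and Slc11a2 below these genes in every library of both gels. The places of Slc40a1 and Fth1 are no measure of ferroportin or of the heavy chain. The Slc40a1 row was nearly empty outside CGG-Cit 3, and Fth1 was not measurable. The second ferroportin row, NEWGENE_620180, was left out of the order. It averaged 6.31 FPKM in CGG-Cit and 11.6 FPKM in CGG, against 8.71 FPKM in CGG-Cit and 9.77 FPKM in CGG for Slc11a2.

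The other genes of iron handling were read from 7 lists by role, with 52 tested genes of 58. Of these 8 were higher and 10 lower, with a median log2 fold change of 0.00, beside the 7.75% and 9.78% of all genes. Leaving out 1 library reduced the 18 calls to 5 without CGG-Cit 1, 3 without CGG-Cit 2, 7 without CGG 1, 3 without CGG 2 and 2 without CGG 3, against 16 without CGG-Cit 3. Lrp1 and Hjv were called in each of these fits, and the adjusted p of the lost calls lay between 0.0517 and 0.142 (limma).

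Plasma carriers and uptake genes had 1 call higher and 3 lower among 10 tested (0 to 1 higher and 0 to 3 lower without single libraries). Tf, which encodes transferrin, the iron carrier that binds the Tfrc product, had 240.0, 184 and 452 FPKM in CGG-Cit libraries 1 to 3, against 839, 1038 and 849 FPKM in CGG libraries 1 to 3. It fell by 1.73 ± 0.32 on the log2 scale (SE; limma adjusted p = 0.0201), so the carrier and its receptor were both lower. Lcn2, the siderophore-binding lipocalin of neutrophils, fell by 1.70 (adjusted p = 0.0191) and Tfr2, the second transferrin receptor, by 1.05 at only 1.56 FPKM in CGG-Cit and 4.18 FPKM in CGG on average (adjusted p = 0.0258). Slc39a14, the ZIP14 importer of iron not bound to transferrin, rose by 0.46 (adjusted p = 0.0181), with 17.0 to 17.8 FPKM in CGG-Cit libraries and 12.3 to 12.4 FPKM in CGG libraries. Steap3, the endosomal ferrireductase, was not called, at 21.9 to 37.3 FPKM in CGG-Cit libraries and 25.5 to 26.7 FPKM in CGG libraries.

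Carriers of the mitochondrial membrane that serve red cell precursors were lower. Slc25a37, mitoferrin 1 of erythroid precursors, averaged 52.0 ± 12.4 FPKM in CGG-Cit and 109 ± 22.2 FPKM in CGG, a fall of 1.07 (limma adjusted p = 0.0223) that is close to that of Tfrc. Abcb10, which stabilises mitoferrin 1, fell by 0.84 (adjusted p = 0.0270). Slc25a28, the mitoferrin of other tissues, overlapped between the groups at 25.0 to 37.2 FPKM in CGG-Cit libraries and 26.7 to 33.1 FPKM in CGG libraries. Slc25a37 and Abcb10 serve haem synthesis, and the erythroid markers were lower as given above. Of 5 cytosolic iron chaperone and ferritin turnover genes 0 were called by limma, 0 by voom and 0 at an unadjusted p under 0.05. Among them was Ncoa4, the receptor that delivers ferritin to lysosomes, with a log2 fold change of -0.15 (adjusted p = 0.353).

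Haem and haemoglobin salvage had 2 calls higher and 2 lower among 12 tested (1 to 3 higher and 0 to 2 lower without single libraries). Lrp1, the receptor of haem-haemopexin complexes and of many other ligands, had 113, 101 and 93.8 FPKM in CGG-Cit libraries 1 to 3, against 56.2, 49.8 and 52.5 FPKM in CGG libraries 1 to 3. It rose by 0.94 ± 0.10 on the log2 scale (SE; limma adjusted p = 0.00556) and passed in all 19 alternative fits. Hp, the plasma haemoglobin binder haptoglobin, which neutrophils also make, averaged 65.4 ± 28.3 FPKM in CGG-Cit and 252 ± 45.2 FPKM in CGG (adjusted p = 0.0130, and 0.0578 without CGG 3). Blvra, biliverdin reductase A, which acts after haem oxygenase, rose by 0.77 (adjusted p = 0.0468), while Blvrb, the form abundant in red cells, was not called at -0.46 (adjusted p = 0.0657). The haem exporter gene Abcg2 fell by 0.46 (adjusted p = 0.0416), at 2.22 FPKM in CGG-Cit and 3.41 FPKM in CGG on average.

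Among the other genes of export App, a partner of ferroportin at the cell surface, rose by 0.64 (limma adjusted p = 0.0366). The membrane ferroxidase gene Heph averaged 14.7 ± 5.09 FPKM in CGG-Cit and 7.24 ± 0.682 FPKM in CGG without passing (adjusted p = 0.0576). Its CGG-Cit libraries all lay above the CGG libraries, as did those of 19.6% of all genes tested, and the groups of Cp overlapped. A difference between Heph and Cp was not tested.

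In the hepcidin axis, which sets ferroportin protein from the liver, 1 of 7 tested genes was higher and 2 were lower. Without single libraries 0 to 1 were higher and 1 to 2 lower. Hjv, hemojuvelin, a BMP co-receptor that is also strong in skeletal muscle, had 0.525, 0.214 and 1.89 FPKM in CGG-Cit libraries 1 to 3, against 57.9, 51.9 and 65.9 FPKM in CGG libraries 1 to 3. It fell by 5.08 ± 0.31 on the log2 scale (SE; limma adjusted p = 0.00120), the largest change among the iron genes tested, and passed in all 19 alternative fits. The 9 skeletal muscle markers tested were all lower too, with a summed level of 36.3 to 336 FPKM in CGG-Cit libraries, against 6606 to 8185 FPKM in CGG libraries, and the part of muscle in the Hjv result was not tested. Erfe, which encodes a hormone that lowers hepcidin, fell by 1.05 (adjusted p = 0.0271) at 1.46 FPKM in CGG-Cit and 4.05 FPKM in CGG on average. The part of erythroid cells or of muscle in the Erfe result was not tested. Bmp6, a ligand that induces hepcidin in the liver, averaged 46.0 ± 10.99 FPKM in CGG-Cit and 17.3 ± 9.39 FPKM in CGG (adjusted p = 0.0441). Hamp, the hepcidin gene itself, was at 0 in all 3 CGG-Cit libraries and at 0 to 0.547 FPKM in CGG libraries and was not tested.

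Of 10 sensors and transcription factors 3 were higher and 0 lower, beside 7.75% and 9.78% of all genes tested. Without single libraries 0 to 4 of them were higher. Aco1, iron regulatory protein 1, averaged 26.8 ± 4.06 FPKM in CGG-Cit and 17.0 ± 0.454 FPKM in CGG, a rise of 0.62 (limma adjusted p = 0.0219), whereas its partner Ireb2 was not called. Nfe2l2, which encodes the oxidative stress factor Nrf2, rose by 0.43 (adjusted p = 0.0270) and Nfe2l1 by 0.46 (adjusted p = 0.0245). Bach1, the haem-sensing repressor of Hmox1, overlapped between the groups at 8.14 to 10.4 FPKM in CGG-Cit libraries and 8.27 to 9.02 FPKM in CGG libraries. Of 9 tested targets of Nrf2 and Bach1 outside the members 0 were higher and 2 lower. Me1, cytosolic malic enzyme, averaged 10.995 ± 1.34 FPKM in CGG-Cit and 20.8 ± 1.12 FPKM in CGG (adjusted p = 0.00955), and Gclm, a subunit of the enzyme that starts glutathione synthesis, fell by 0.59 (adjusted p = 0.0398). Me1 passed in all 19 alternative fits, and Gclm lost its call without any library but CGG-Cit 3, with a limma adjusted p of up to 0.118.

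Among transcripts outside the members that carry an iron-responsive element, Alas2, the erythroid enzyme that starts haem synthesis, averaged 72.3 ± 32.5 FPKM in CGG-Cit and 190 ± 18.3 FPKM in CGG (limma adjusted p = 0.0231), and it is also an erythroid marker. Epas1, Cdc14a and Cdc42bpa were not called. Alas2 lost its call without any library but CGG-Cit 3, with a limma adjusted p of up to 0.0850.

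**Figure D4:**
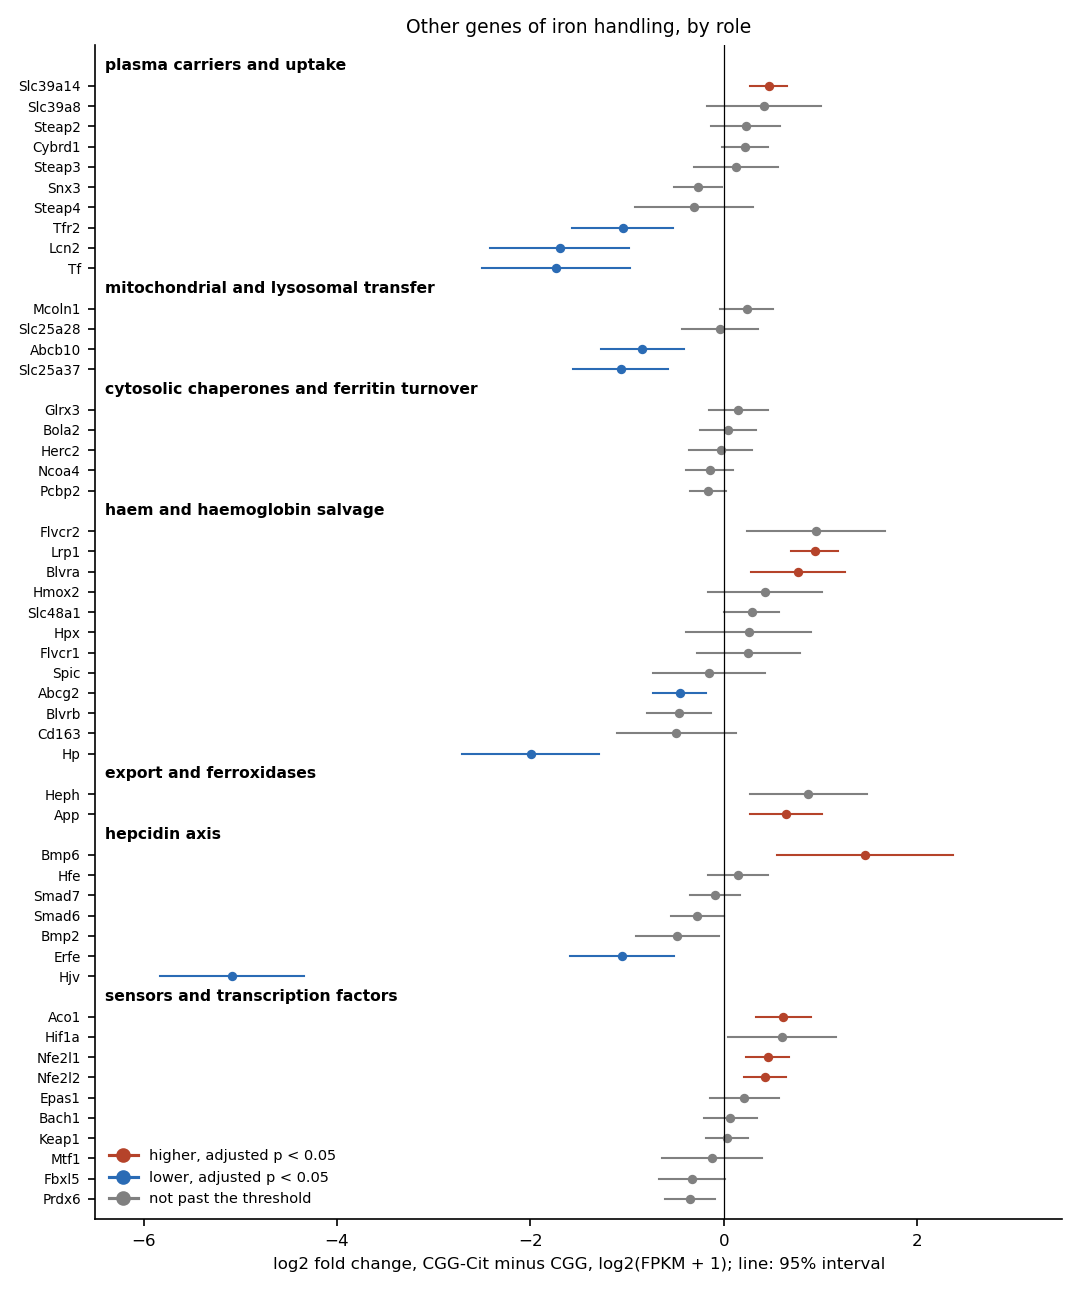
Log2 fold change of other genes of iron handling grouped by role, CGG-Cit minus CGG in log2(FPKM + 1) (horizontal axis), with 95% intervals from limma. The higher genes reach 1.46 (Bmp6) and the lower ones -5.08 (Hjv), and the list of chaperones and ferritin turnover stays within the grey points.

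Over the 6 libraries, named protein-coding genes whose log2 levels were among the most like that of Slc11a1 included Plekho1 and Bcl2a1, each with a Pearson r of 0.997. Bcl2a1, a survival gene of the Bcl2 family, averaged 181 FPKM in CGG-Cit and 62.4 FPKM in CGG. The genes most like Tfrc were Scrib, Usp1 and Hdgf, each with r = 0.999. These are descriptions over 6 libraries that also share their group difference, picked from 12645 genes.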

How the data were processed

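RNA of calvarial defect tissue was sequenced in read pairs, per the labels. The authors deposited 1 table of FPKM values for 34045 genes. In the submitters' processing notes stand, without a stated role, the build mRatBN7.2, DESeq2 1.20.0, HISAT2 2.0.5 and featureCounts 1.5.0-p3. The table's coordinates could not be tied to that build and are printed as listed. Strand setting and the treatment of reads that map to several places: not given in the sources used here. Values times gene length were whole multiples of 1 fragment in 100% of values above 0 (within 0.01), and 1 fragment in 1 kb was worth 0.0596 to 0.0657 FPKM. The main test was limma 3.58.1 in R 4.3.3 (lmFit, eBayes with a trend) on log2(FPKM + 1), which understates the change of low genes. It covered 15965 genes whose mean reached 0.5 FPKM, with Benjamini-Hochberg adjustment over all of them and a threshold of 0.05. The fit was checked on simulated data, where the share of false calls came out above the nominal level, so calls close to the threshold are less sure. Ratios within a library were tested by exact permutation over 20 assignments. Of 195 listed symbols 188 matched, and 7 were not analysed here.

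Groups were taken from the treatment labels. The members, gene lists, alternatives and naming rule were chosen with earlier results of these data known. The rule named the members, up to 5 genes with the smallest p of each iron-related list, up to 3 of the highest level of each marker list, and 3 genes most like each of the 2 members with the most extreme limma statistic. Named outside it, after their values were seen, were NEWGENE_620180, the ferritin copies, Siglec1, Cd163, Spic, Marco, Steap3, Slc25a28, Hamp, Bach1, Bglap and Ibsp. The 19 alternative fits covered pseudocounts of 0.1 and 0.5, no filter and a filter of 2 FPKM, other scalings, robust variances, quality weights, the replicate block, voom on recovered fragments and each library left out. The ratio of Fth1 to Ftl1 could not be computed. Some genes that the rule named are not reported here, though the counts over all genes and over the lists include them.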

Additional observations from a re-analysis of the deposited data

How the results depend on the processing

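Leaving out single libraries moved Tfrc between -1.25 and -0.88, Ftl1 between 0.53 and 0.91 and Slc11a1 between 1.31 and 2.24 in log2 fold change; 0 to 2 of the 9 genes were then higher and 0 to 1 lower, of the wider iron genes 1 to 9 higher and 1 to 10 lower, and of all genes 122 to 1312 higher and 190 to 1622 lower. Tfrc passed in 14 of the 19 alternative fits, Slc11a1 in 11 and Ftl1 in 4; Hmox1, Slc11a2, Cp, Ireb2 and the Slc40a1 row passed in 0 of those fitted. Slc11a1 kept its log2 fold change of 1.72 but not its call without the filter (adjusted p = 0.0800), with robust variances (0.0507) and with the replicate block (0.0963), all by limma, and in these 3 fits 0 of the 9 genes were higher. Ftl1 gained a call under TPM (0.90), quantile normalization (1.16) and voom on recovered fragments (0.72), with 2 of the 9 genes higher in each. TPM moved the median of all genes to 0.16, gave 2203 genes higher and 948 lower, and turned the sign of Ireb2 (0.0075), Pcbp2 (0.013), Ncoa4 (0.029), Herc2 (0.13) and Mbp (0.11), none of them called. Quality weights turned Mbp (0.027) and Ctsk (0.021). Without single libraries genes that were never called also crossed 0, among them Bola2 (-0.063 to 0.14), Herc2 (-0.15 to 0.081), Cdc14a (-0.0089 to 0.11), Mbp (-0.36 to 0.16), Ctsk (-0.43 to 0.13) and Emcn (-0.15 to 0.40). Steap3 (-0.057 to 0.32), Slc25a28 (-0.20 to 0.074), Spic (-0.42 to 0.044) and Bach1 (-0.017 to 0.14) did so too. Voom called 1345 genes higher and 1590 lower. Same-numbered libraries of the 2 groups did not deviate together (correlations -0.096, 0.0016 and -0.078). The labels do not say what the numbers mark, and these correlations cannot exclude that same-numbered libraries share an animal, litter or day. With the replicate block 612 genes were higher and 1055 lower, and of the wider iron genes 4 were higher. In that fit NEWGENE_620180 had an adjusted p of 0.0587 by limma and Tfrc stayed lower at 0.0196. Without the filter 5 wider iron genes were higher. Some ratios changed sign: Tfrc to the cell cycle list (-0.013) was 0.019, 0.0040 and 0.0047 with pseudocounts 0.1 and 0.5 and TPM and -0.057 to 0.050 without single libraries, Slc40a1 to the macrophage list (-0.23) 0.89 and 0.072 with pseudocounts 0.1 and 0.5 and -1.19 to 0.34 without single libraries, Ftl1 to the macrophage list (-0.41) 0.0085 under quantile normalization, and Tf to the neutrophil list (-0.017) 0.014 with pseudocount 0.1, 0.0058 under TPM and -0.081 to 0.072 without single libraries. The cause of these moves was not tested. Depth limits the Slc40a1 row, with at most 5 fragments outside CGG-Cit 3.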

Other observations

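Transferrin and neutrophil transcripts were lower with CGG-Cit by similar amounts. Tf relative to the neutrophil list, as a difference of log2(FPKM + 1) values, was 1.43, 1.58 and 1.59 in CGG-Cit libraries 1 to 3, against 1.499, 1.73 and 1.42 in CGG libraries 1 to 3, with a mean difference of -0.017 (exact two-sided permutation p = 1). Relative to the erythroid list Tf differed by -0.44 between CGG-Cit and CGG, with overlap (exact two-sided permutation p = 0.2), and relative to the skeletal muscle list by 4.15, without overlap (exact two-sided permutation p = 0.1, the smallest possible). These ratios were chosen after the values of Tf had been seen.

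Connective tissue genes, like macrophage genes, were higher in the CGG-Cit group, though within that group their summed level was highest in CGG-Cit 3, where that of macrophage genes was lowest. Among 8 fibroblast markers, 7 passed as higher (4 to 7 without single libraries) and 0 as lower, with a summed level of 1340.0 to 1649 FPKM in CGG-Cit libraries, against 508 to 822 FPKM in CGG libraries. Sfrp2, a secreted Wnt modulator, averaged 301 ± 52.0 FPKM in CGG-Cit and 71.0 ± 21.7 FPKM in CGG (SD, n = 3 each; limma adjusted p = 0.00591). Osteoclasts share lineage with macrophages, and of 7 tested osteoclast markers 1 was higher and 1 lower (0 to 1 each without single libraries). Their median log2 fold change was -0.45. Ctsk, the bone-resorbing cathepsin, averaged 935 ± 336 FPKM in CGG-Cit and 1024 ± 135 FPKM in CGG (limma adjusted p = 0.671). Meningeal markers summed to 198 to 1737 FPKM in CGG-Cit libraries, against 47.1 to 331 FPKM in CGG libraries, with 3 of 9 called higher (0 to 5 without single libraries) and 0 lower. Of 7 tested endothelial markers 0 were called by limma, 0 by voom and 1 at an unadjusted p under 0.05, with 154 to 214 FPKM in CGG-Cit libraries and 114 to 193 FPKM in CGG libraries in sum. Glial markers summed to 20.5 to 25.5 FPKM in CGG-Cit libraries and 24.1 to 35.3 FPKM in CGG libraries, and of 6 tested 0 were called higher and 2 lower (0 to 1 lower without single libraries).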
